A study of Homo sapiens with 2 samples.

Results

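The 10 genes described here are feedback inhibitors and transcriptional outputs of the ERK branch of MAP kinase signalling: DUSP4, DUSP5, DUSP6, SPRY2, SPRY4, SPRED1, PHLDA1, ETV4, ETV5 and IER3. They were chosen by symbol, and each stood on 1 row of the deposited table, out of 56690 gene symbols in all. Their polyadenylated RNA was measured by RNA-seq in Tu212, an epithelial-derived line used as a model of squamous carcinoma of the head and neck. Cells labelled PRMT5 overexpression had received the plasmid pEZ-PRMT5 for 48 h, and cells labelled control had received the empty pEZ-vector for the same time. Each group was 1 library, so no difference below could be set against a spread between cultures, no test was possible and no p-value is given. The labels name no clone or culture batch, and both groups keep their own PRMT5 gene, whose transcripts share 1 row of the table with those of the plasmid.

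Growth factor receptors switch on RAS, which activates RAF, MEK and ERK in turn, and active ERK raises the transcription of genes that in turn restrain it. DUSP phosphatases dephosphorylate the MAP kinases, and Sprouty and Spred proteins act further up, between the receptor, RAS and RAF. ETV4, ETV5, PHLDA1 and IER3 also respond to ERK at the level of transcription, and the RNA of such genes is widely read as a gauge of ERK output in epithelial cancers.

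The PRMT5 overexpression library held 19908258 reads on genes and the vector control library 14119997, a ratio of 1.41. PRMT5 itself, the arginine methyltransferase under study, had 5770 reads against 2068 in the vector control, and its level was 2.02-fold higher. Its antisense neighbour PRMT5-AS1, which overlaps its exons, held 61 against 21 reads. All 9 epithelial markers examined, among them KRT5 and TP63, were detected. Their summed level was 11195 CPM (read counts scaled to a common library size) in the PRMT5 overexpression library and 10108 CPM in the vector control. The 4 fibroblast markers summed to 1.88 against 4.70 CPM, the 3 endothelial markers to 3.50 against 4.77 CPM and the 4 leukocyte markers to 16.6 against 21.3 CPM. CD68, which epithelial lines can also express and which overlaps other genes, supplied 16.2 and 20.1 CPM of the leukocyte sums. VWF supplied 3.50 and 4.70 CPM of the endothelial sums, nearly all of them. In the PRMT5 overexpression library DCN, CD3E, PECAM1 and CDH5 were at 0 reads, and in the vector control PTPRC and CDH5 were. The part of such transcripts in the values below was not tested.

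One of the 10 genes stood far from the others. PHLDA1 was 2.49-fold lower in the PRMT5 overexpression library, and the other 9 genes lay within 1.5-fold of the vector control. In bulk RNA, fewer cells that express a gene and less of its RNA per cell cannot be told apart. Of the 10 genes, 0 were at least 1.5-fold higher, where 7.06% of the 17777 genes that reached 10 reads in either library, the floor used throughout, were. At least 1.5-fold lower was 1 gene, PHLDA1, where 5.33% of those genes were, and at least 2-fold lower was again PHLDA1, against 1.94%. A log2 fold change (PRMT5 overexpression minus vector control) above 0 was seen in 6 of the 10 genes and in 50.4% of all genes past the same floor. The median log2 fold change of the 10 genes was 0.10, against 0.0022 over all genes past the floor. Of the 10 genes, 9 averaged 50 or more reads over both libraries, DUSP4 being the exception. Among the 13282 genes read that deeply, 2.70% were at least 1.5-fold higher, 2.42% at least 1.5-fold lower and 0.806% at least 2-fold lower, and 48.8% had a log2 fold change above 0.

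**Figure D1:**
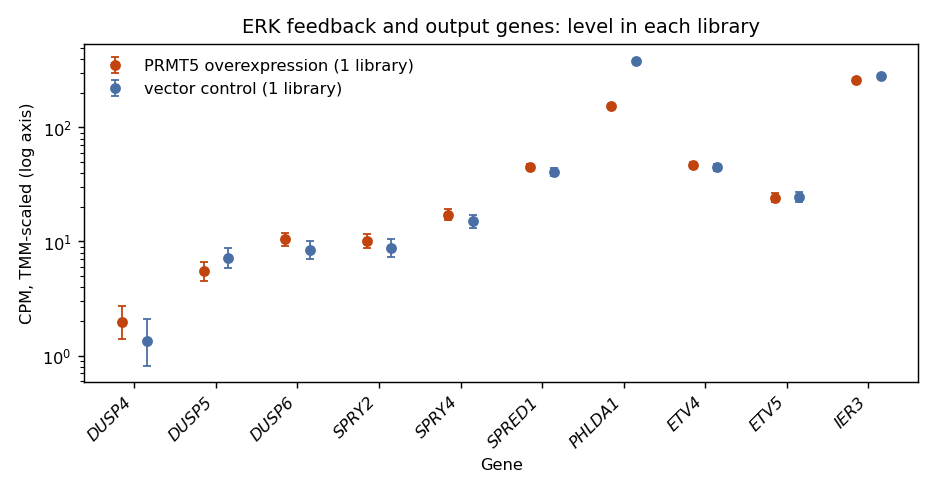
Level of each of the 10 genes in CPM (log axis) in the PRMT5 overexpression library (left point of each pair) and the vector control library (right point). Bars are 95% Clopper-Pearson intervals for counting error in a single library. PHLDA1 sits at 155 CPM in the PRMT5 overexpression library and at 385 CPM in the other, and the paired points of the other genes lie close together.

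The 3 phosphatases had few reads. DUSP4 (ENSG00000120875, minus strand of chromosome 8, 29333064 to 29350668 in GRCh38) encodes a nuclear phosphatase of ERK and JNK and had 39 reads in the PRMT5 overexpression library and 19 in the vector control. Its levels were 1.98 and 1.33 CPM, and the log2 fold change of 0.55 had a counting interval (95%, exact Clopper-Pearson, for counting error alone) of -0.26 to 1.44. This was the highest fold change of the set and also the least precise, since the interval runs from slightly lower to 2.72-fold higher.

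DUSP5 (ENSG00000138166, plus strand of chromosome 10, 110497838 to 110511544) encodes a nuclear phosphatase selective for ERK and had 109 reads against 103 in the vector control. Its levels were 5.53 CPM and 7.22 CPM, for a log2 fold change of -0.38 (counting interval -0.79 to 0.02). DUSP6 (ENSG00000139318, minus strand of chromosome 12, 89347232 to 89353271) encodes the cytoplasmic ERK phosphatase and is among the most widely used markers of ERK activity. It had 206 reads in the PRMT5 overexpression library and 120 in the vector control, at 10.5 and 8.42 CPM. The log2 fold change of DUSP6 was 0.31 (counting interval -0.02 to 0.65). The 2 nuclear phosphatases thus lay on opposite sides of 0, and the counting intervals of all 3 phosphatases included 0. Summed over the 3 genes, the level was 17.96 CPM in the PRMT5 overexpression library and 16.97 CPM in the vector control. DUSP6 shares exon bases with the opposite-strand gene AC024909.2, which held 16 against 7 reads, and the log2 fold change with those reads added was 0.34.

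Reads of paralogs can be told apart only where their sequences differ, so the most alike coding stretch of 60 bases is shown for 3 pairs among the 10 genes, read from GENCODE release 29 transcripts (GRCh38) in the direction of the coding strand, which is plus for DUSP5 and minus for the other 5 genes. Bases that differ within a pair are in capitals, and positions count from the first base of the start codon. In the phosphatase pair the stretch spans coding bases 618 to 677 of DUSP6 and 534 to 593 of DUSP5 and differs at 18 bases.
DUSP6: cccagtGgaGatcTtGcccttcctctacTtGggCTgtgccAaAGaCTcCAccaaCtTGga
DUSP5: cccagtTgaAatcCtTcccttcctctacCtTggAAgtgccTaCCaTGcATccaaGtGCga
The longest run of identical bases at any alignment of both coding sequences was 14 bases. In the longest transcript of each, 0 of 436 stretches of 50 bases from DUSP6 and 0 of 251 from DUSP5 occurred in a transcript of another gene. Genes that share exon bases were left out of that search.

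The 3 inhibitors of the Sprouty and Spred families all lay slightly above 0. SPRY2 (ENSG00000136158, minus strand of chromosome 13, 80335976 to 80340951) encodes an inhibitor of receptor signalling to RAS. It had 198 reads in the PRMT5 overexpression library and 126 in the vector control, at 10.04 and 8.84 CPM, with a log2 fold change of 0.18 (counting interval -0.14 to 0.52). SPRY4 (ENSG00000187678, minus strand of chromosome 5, 142310427 to 142326455), a second member of that family, had 339 against 214 reads, at 17.2 and 15.01 CPM. Its log2 fold change was 0.20 (counting interval -0.05 to 0.45). SPRED1 (ENSG00000166068, plus strand of chromosome 15, 38252326 to 38357249) encodes the protein that brings the RAS inhibitor neurofibromin to the membrane. It had 891 reads in the PRMT5 overexpression library and 584 in the vector control, at 45.2 and 41.0 CPM. The log2 fold change of SPRED1 was 0.14 (counting interval -0.01 to 0.30). The 3 fold changes differed from each other by less than the width of each interval, and each interval included 0.

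The most alike coding stretch of the Sprouty pair lies at coding bases 606 to 665 of SPRY4 and 594 to 653 of SPRY2 and differs at 14 of 60 bases.
SPRY4: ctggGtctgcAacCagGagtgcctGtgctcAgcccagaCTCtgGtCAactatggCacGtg
SPRY2: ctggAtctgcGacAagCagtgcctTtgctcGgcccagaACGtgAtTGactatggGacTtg
The longest identical run was again 14 bases. No exon base of SPRY2, SPRY4 or SPRED1 was shared with another gene that had 10 or more reads. In SPRED1, 14 of 774 stretches of 50 bases, or 1.81%, occurred in transcripts of other genes.

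The 2 transcription factors were nearly level between the libraries. ETV4 (ENSG00000175832, minus strand of chromosome 17, 43527844 to 43579620) had 919 reads in the PRMT5 overexpression library and 637 in the vector control, at 46.6 and 44.7 CPM. Its log2 fold change was 0.06 (counting interval -0.09 to 0.21). ETV5 (ENSG00000244405, minus strand of chromosome 3, 186046308 to 186110318) had 475 against 350 reads, at 24.1 and 24.5 CPM, for a log2 fold change of -0.03 (counting interval -0.23 to 0.18). Both encode ETS factors of the PEA3 group, which bind DNA through a conserved ETS domain. Their intervals bound any difference between these libraries at 1.16-fold for ETV4 and 1.17-fold for ETV5, as far as counting error goes.

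ETV4 and ETV5 are the most alike of the 3 pairs shown. In their most alike stretch, at coding bases 1221 to 1280 of ETV5 and 1140 to 1199 of ETV4, 3 of 60 bases differ.
ETV5: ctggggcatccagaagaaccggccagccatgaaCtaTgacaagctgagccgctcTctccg
ETV4: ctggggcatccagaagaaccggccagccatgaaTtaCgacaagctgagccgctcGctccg
The longest identical run was 33 bases. With exon-sharing genes left out, 0 of 238 stretches of 50 bases of ETV4 and 0 of 407 of ETV5 occurred in transcripts of other genes. ETV4 shares exon bases with DHX8, an RNA helicase gene on the opposite strand with 2075 against 1383 reads, and with those added its log2 fold change was 0.10. ETV5 shares exon bases with DGKG on the same strand, which held 80 against 60 reads, and its log2 fold change was -0.03 with them.

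**Figure D2:**
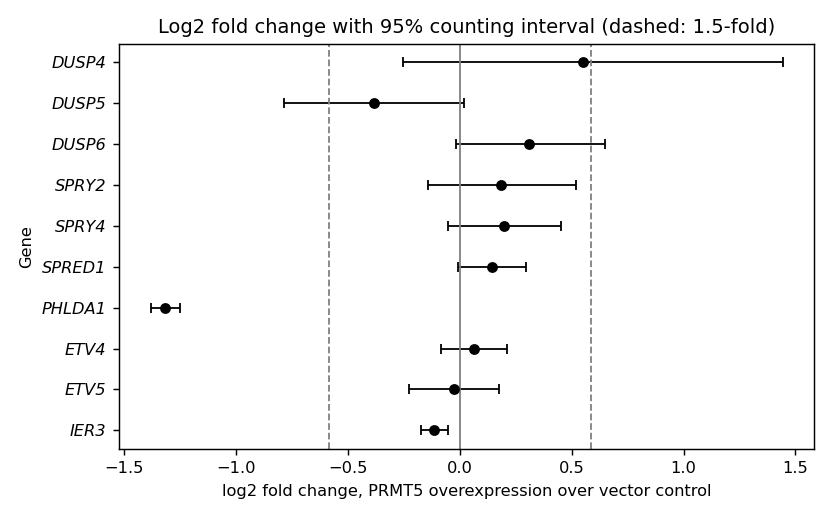
Log2 fold change of PRMT5 overexpression over vector control for each of the 10 genes, with 95% counting intervals as bars and 1.5-fold marked by dashed lines. The interval of PHLDA1, -1.38 to -1.25, lies wholly beyond the lower dashed line, the interval of IER3 lies below 0 but inside both lines, and the other 8 intervals include 0.

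The remaining outputs, PHLDA1 and IER3, had the most reads of the 10 genes, and their values parted. PHLDA1 (ENSG00000139289, minus strand of chromosome 12, 76025447 to 76033932) encodes a protein with a pleckstrin homology-like domain that is induced by growth factors. It had 3049 reads in the PRMT5 overexpression library and 5495 in the vector control, although the PRMT5 overexpression library was the deeper one. The levels were 155 CPM (counting interval 149 to 160) and 385 CPM (counting interval 375 to 396). The log2 fold change of PHLDA1 was -1.32 (counting interval -1.38 to -1.25). IER3 (ENSG00000137331, minus strand of chromosome 6, 30743199 to 30744554), an immediate early gene whose protein is an ERK substrate, had 5150 reads against 4035 in the vector control. IER3 was at 261 CPM and 283 CPM, with a log2 fold change of -0.12 (counting interval -0.17 to -0.06).

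Few genes read as deeply as PHLDA1 had so low a value. Of 4118 genes averaging 1000 or more reads, 9 were as low as PHLDA1 or lower, with PHLDA1 counted. Among the 1436 genes whose mean reads lay within 2-fold of its own, again with PHLDA1 counted, 4 were as low. Of these genes 0.627% were as far from 0 in either direction. For the other 9 genes that last share ran between 23.2% for DUSP5 and 88.3% for ETV5. The share was 39.2% for IER3, although its interval lay below 0. Counting intervals lay below 0 in 2 of the 10 genes, PHLDA1 and IER3, where 14.3% of all genes past the floor had such an interval, and above 0 in 0 of the 10 genes, where 14.3% did. Among genes averaging 50 or more reads these shares were 17.3% below 0 and 17.1% above. With median-of-ratios scaling the intervals of DUSP6 and SPRED1 lay just above 0, and with total reads that of DUSP5 lay below it.

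**Figure D3:**
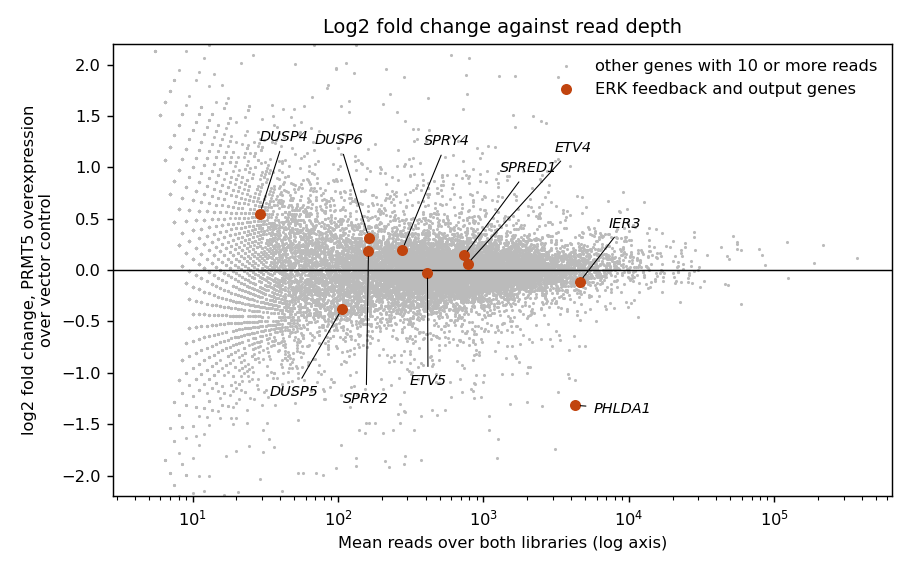
Log2 fold change of PRMT5 overexpression over vector control against mean reads over both libraries (log axis), for genes that reached 10 reads in either library (grey) and the 10 genes (orange, named); 133 genes lie beyond the vertical axis. The 9 genes other than PHLDA1 sit within the grey band at their depth, and PHLDA1, at a mean of 4272 reads, lies below most of it.

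Genes that overlap PHLDA1 held few reads beside it. It shares exon bases with AC011611.3 and AC011611.4 on the opposite strand, which held 239 and 59 reads in the PRMT5 overexpression library and 188 and 37 in the vector control. With the reads of both added, the log2 fold change of PHLDA1 was -1.24. In its longest transcript 3 of 802 stretches of 50 bases, or 0.374%, occurred in transcripts of genes other than those 2. For IER3, the opposite-strand gene IER3-AS1 held 124 against 55 reads, and with them IER3 was at -0.10.

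Because PHLDA1 and IER3 were so abundant, they set the summed level of the 10 genes. The sum was 577 CPM in the PRMT5 overexpression library and 819 CPM in the vector control, and 72.1% and 81.6% of those reads were on these 2 genes. Without PHLDA1 the sum was 422 CPM and 434 CPM, and the median log2 fold change of the other 9 genes was 0.14. Without IER3 as well, the remaining 8 genes summed to 161 CPM and 151 CPM.

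Levels were compared between genes per kilobase of merged exon. The lengths of the transcripts expressed are not known, so ratios and order between genes depend on that choice of length. The overlaps given here concern counting error alone. IER3 was highest, at 193 CPM per kilobase in the PRMT5 overexpression library and 209 in the vector control. PHLDA1 was second in both, at 19.2 and 47.8 CPM per kilobase, so it stood 10.1 times below IER3 in the PRMT5 overexpression library and 4.37 times below it in the vector control. ETV4 followed at 12.9 and 12.4 CPM per kilobase and SPRED1 at 5.47 and 4.96. ETV5 was at 4.15 and 4.23 CPM per kilobase, and in the vector control its interval overlapped that of SPRED1, in the PRMT5 overexpression library that of SPRY2. SPRY2, SPRY4, DUSP5 and DUSP6 lay between 2.11 and 3.31 CPM per kilobase in the PRMT5 overexpression library and between 1.82 and 2.91 in the vector control, and neighbours in that order overlapped in both libraries. DUSP4 was lowest, at 0.273 and 0.184 CPM per kilobase, with no overlap with the gene above it.

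Most genes upstream of these outputs lay close to 0. Over all genes past the floor, 7.06% were at least 1.5-fold higher and 5.33% lower. The genes of the pathway, receptor and adaptor lists below all averaged 50 or more reads. At that depth 2.70% of genes were at least 1.5-fold higher and 2.42% lower, so few such genes would be counted in lists of this size. Counting intervals lay above 0 in 17.1% of genes at that depth and below 0 in 17.3%. Of 11 genes for RAS, RAF, MEK, ERK and the scaffold KSR1, 0 differed by 1.5-fold, and their median log2 fold change was -0.02 with a range of -0.25 to 0.06. Intervals lay above 0 in 0 of these 11 genes and below 0 in 3. NRAS was at 249 CPM against 244 CPM. The 8 receptors had a median of 0.03 and 0 genes at 1.5-fold, with intervals above 0 in 3 and below 0 in 2. EGFR was by far the most read of them, with 30166 against 23851 reads. Its log2 fold change was -0.13 (counting interval -0.15 to -0.10), and IGF1R was at 0.04. Of 12 adaptors and RAS regulators, 1 was higher by 1.5-fold or more and 0 lower, with a median of -0.01. Intervals lay above 0 in 2 of these 12 genes and below 0 in 1. The gene past 1.5-fold was FRS2, the adaptor that links FGF receptors to RAS, with 514 reads against 143 in the vector control. FRS2 was at 26.1 CPM against 10.03 CPM, a log2 fold change of 1.37 (counting interval 1.11 to 1.66), and shared no exon base with a counted gene. With deposited FPKM and a pseudocount of 1, FRS2 was at 0.69. NF1, which encodes neurofibromin, was at 0.00, and PTPN11, the SHP2 phosphatase gene, was at 0.03.

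Other inhibitors of the pathway lay on both sides of 0. For comparison, 7.06% of all genes past the floor were at least 1.5-fold higher and 5.33% lower. Among genes averaging 50 or more reads these shares were 2.70% and 2.42%. Of 7 further MAP kinase phosphatases, 0 reached 1.5-fold higher and 1 reached 1.5-fold lower, with a median log2 fold change of -0.07; the lower one was DUSP2, with 8 against 10 reads (counting interval -2.33 to 0.70). DUSP16 was at -0.07 and DUSP9 at 0.00. Of 7 further feedback inhibitors, 2 were higher by 1.5-fold or more and 0 lower, with a median of 0.35, or 0.11 with deposited FPKM and a pseudocount of 1. SPRY1 had 180 against 81 reads, 9.13 against 5.68 CPM, and a log2 fold change of 0.68 (counting interval 0.30 to 1.08); with deposited FPKM it came inside 1.5-fold, at 0.27. The other higher gene was SPRED3, with 60 against 16 reads and a mean of 38, below 50. PEBP1, the RAF kinase inhibitor gene, was at 0.13, and ERRFI1, an inhibitor of the EGF receptor, at -0.25.

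Of 16 other ERK output genes, 0 reached 1.5-fold higher and 3 reached 1.5-fold lower, and 13 had a log2 fold change below 0, with a median of -0.12. The count of 13 depends on the scaling, since PLAUR, ETV1, MCL1 and JUNB lay between -0.012 and -0.003. Median-of-ratios scaling moved the median of all genes up by 0.02 and put MCL1 at 0.01. Over all genes past the floor, 7.06% were at least 1.5-fold higher, 5.33% at least 1.5-fold lower and 50.4% had a log2 fold change above 0. Among genes averaging 50 or more reads these shares were 2.70%, 2.42% and 48.8%. Counting intervals lay below 0 in 5 of the 16 genes and above 0 in 1. Over all genes past the floor 14.3% lay on each side, and at 50 or more reads 17.3% lay below and 17.1% above. MYC had by far the lowest value, at 7.71 CPM against 114 CPM and a log2 fold change of -3.88, or -2.87 with deposited FPKM and a pseudocount of 1. HBEGF, a ligand of the EGF receptor, had 116 against 127 reads and a log2 fold change of -0.59 (counting interval -0.97 to -0.22). HBEGF came inside 1.5-fold, at -0.57, both with median-of-ratios scaling and with a prior count of 5, and at -0.40 with deposited FPKM. EPHA4 was the third, with 28 against 41 reads and a log2 fold change of -0.99. CCND1, the cyclin D1 gene, lay on the other side, at 349 CPM against 273 CPM and a log2 fold change of 0.35 (counting interval 0.30 to 0.41). MCL1 was at -0.01. The 9 genes of the p38, JNK and ERK5 branches had a median of -0.06, a range of -0.47 to 0.20 and 0 genes at 1.5-fold. The lowest was MAPK14, the p38 alpha gene, with 671 reads in each library and a log2 fold change of -0.47 (counting interval -0.62 to -0.31), and the other 8 intervals included 0. The JNK2 gene MAPK9 was at -0.07 and the p38 activator gene MAP2K3 at -0.06.

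**Figure D4:**
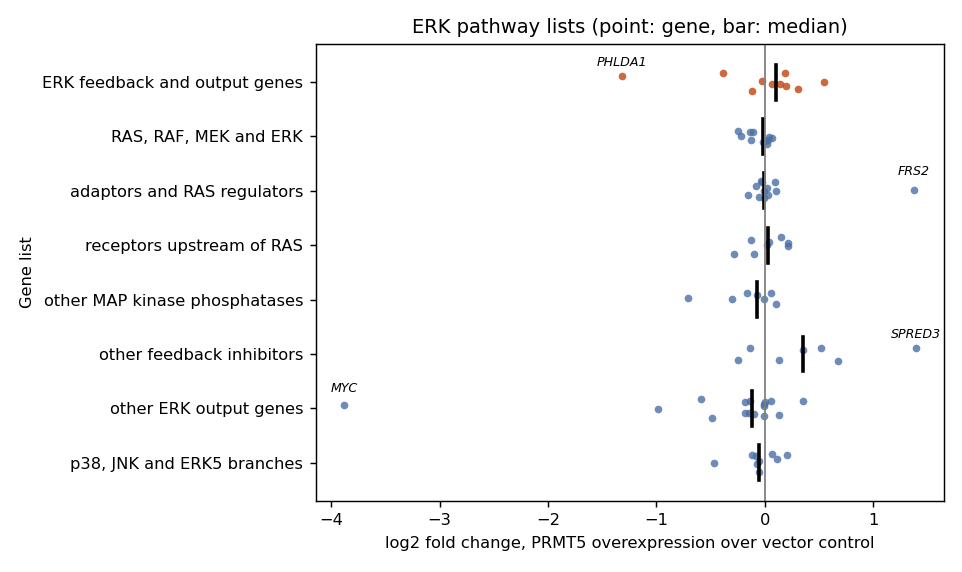
Log2 fold change of PRMT5 overexpression over vector control for the 10 genes (orange) and 7 lists of other ERK pathway and MAP kinase genes (blue), with each list's median as a black bar and names for genes at least 2-fold apart. Among the 10 genes PHLDA1 alone passes 2-fold, and MYC, FRS2 and SPRED3 do so in the other lists.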

How the data were processed

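Raw read counts per gene were used as deposited by the authors, with gene positions in GRCh38. CASAVA 1.8, HISAT2 2.1.0, StringTie 1.3.4b and edgeR are listed, with no roles, per the submitters' processing notes; whether strand was used in counting is not stated in them. The FPKM values deposited by the authors served as an alternative only. In 9 of the 10 genes their length equalled the summed length of all distinct exons in GENCODE release 29 within 1%, up to 2.00 times the merged exon length, so FPKM was not compared between genes. All 10 genes have the same start and end in that release.

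Rows of 1 symbol were summed (221 symbols stood on several rows). Counts were scaled by TMM (edgeR 4.0.16, R 4.3.3; factors 0.990 for PRMT5 overexpression and 1.01 for vector control) and log2 fold changes used a prior count of 1. CPM are TMM-scaled. Counting intervals are exact binomial (Clopper-Pearson) at 95% and leave out variation between cultures; reads are not independent molecules. Genes share exon bases where GENCODE exons overlap on either strand and the partner has 10 or more reads. The longest transcript of each gene was cut into stretches of 50 bases, every 10 bases, and searched on both strands in the transcripts of genes that share no exon with it.

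The 10 genes and all lists were chosen with earlier results of these data known. Named were the 10 genes and PRMT5; of each list, up to 4 genes at 1.5-fold or more averaging 50 or more reads and the 2 most read; and exon-sharing genes. One gene that this rule names is not reported here. DUSP2, EPHA4, CD68, KRT5, TP63, MAPK14, the markers at 0 reads and the Sprouty and Spred genes were named after their values were seen. So were PLAUR, ETV1, JUNB and VWF. The log2 fold changes and counting intervals were tried on simulated counts that held counting error alone. That trial used no TMM factors and no variation between cultures, so it does not bear on such variation. The alternatives tried were DESeq2 1.42.0 median-of-ratios factors, total reads, a prior count of 0.1 or 5, FPKM with a pseudocount of 1, the highest row per symbol, sums with exon-sharing genes, other read floors, 2-fold and protein-coding genes only. Other software was scipy 1.17.1, pandas 2.3.3, numpy 2.4.6 and matplotlib 3.10.9 in Python 3.11.15.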

Additional observations from a re-analysis of the deposited data

How the results depend on the processing

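The median log2 fold change of the 10 genes stayed within -0.05 to 0.25 under all alternatives run for it. That range is the mean of the counting intervals of the middle genes, ETV4 and SPRED1. It is not an interval for the median, so staying inside it says little. PHLDA1 remained the single gene of the 10 at 1.5-fold or more under all alternatives run. Most of these settings move well-read genes little by construction. Leaving out PHLDA1, leaving out MYC and keeping genes averaging 50 or more reads are settings added once the values had been seen. Over all genes, 1255 lay at least 1.5-fold higher and 947 lower; these counts were 4917 and 4346 without any floor, 442 and 348 once 50 reads in either library were required, 516 and 344 at 2-fold, and 571 and 601 among protein-coding genes, which hold other numbers of genes by construction. The median of the 7 further feedback inhibitors was 0.111 with deposited FPKM, where a pseudocount of 1 shrinks low genes. Of 203 values recalculated for 29 named genes, 195 stayed in their counting intervals and 0 changed sign after being called apart. Other scalings moved the median of all genes by -0.03 to 0.02. The counting intervals of DUSP4, DUSP5, DUSP6 and SPRY2 reached 2.72-fold, 1.73-fold, 1.57-fold and 1.43-fold, so depth allows differences up to those sizes. No paired analysis was possible because there is a single library on each side.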

Other observations

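The Sprouty and Spred families, inhibitors of signalling from receptors to RAS and RAF, were looked at as a whole after their values were seen, so their common side is a description only. All 7 genes had a log2 fold change above 0 under TMM, median-of-ratios and total-read scaling, where 50.4% of all genes past the floor of 10 reads did. SPRED3 was highest, with 60 reads in the PRMT5 overexpression library and 16 in the vector control, a log2 fold change of 1.39 (counting interval 0.63 to 2.34). SPRED2 was the best read, with 1226 against 695 reads, 62.2 against 48.7 CPM, and a log2 fold change of 0.35 (counting interval 0.22 to 0.49). SPRY3 had 60 against 30 reads and a log2 fold change of 0.52 (counting interval -0.12 to 1.22). Counting intervals lay above 0 in 3 of the 7 genes, SPRY1, SPRED2 and SPRED3, where 14.3% of all genes past the floor and 17.1% of those averaging 50 or more reads had such an interval. Summed over the 7 genes, the level was 150 CPM in the PRMT5 overexpression library and 122 CPM in the vector control.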
